A study of Arabidopsis thaliana with 10 samples.

Results

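The Casparian strip is the lignin ring that seals the walls of the root endodermis, and 8 genes of its formation were examined in Arabidopsis thaliana seedlings after gamma irradiation. They comprise the membrane scaffold genes CASP1 (AT2G36100), CASP2 (AT3G11550), CASP4 (AT5G06200) and CASP5 (AT5G15290), the transcription factor gene MYB36 (AT5G57620), the wall protein gene ESB1 (AT2G28670), the peroxidase gene PER64 (AT5G42180) and the receptor kinase gene SGN3 (AT4G20140, listed as GSO1 in the RefSeq gene table). The genes were taken by locus code, and all 8 were present among the 25410 genes with a locus code on the array, with 10 probes in all. The set was selected on measured values, namely the gamma minus mock differences on these same arrays, in which CASP5 had stood out as lower. The gamma against mock values of the 8 genes are therefore a description, and a threshold that one of them passes in this contrast is no test of the set.

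Whole seedlings of ecotype Col-0, aged 14 days and carrying no stated mutation or transgene, were exposed to 200 Gy of gamma rays from a cobalt source at 50 Gy per h for 4 h, or to a mock treatment. RNA was taken 24 h after the exposure and hybridised to 1-colour (Cy3) Agilent arrays. There were 5 runs, each on a day of its own and with plants of its own, and a run yielded a pair of arrays, 1 mock and 1 gamma. Runs 1 and 2 carry an earlier year in their titles than runs 3, 4 and 5.

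Of the 43603 probes, between 71.7% and 76.6% exceeded background clearly, depending on the array, with 0 saturated spots. The signal at the 75th percentile, by which each array was scaled, lay between 1644 and 2642. Levels below are log2 values relative to that percentile, so that 0 marks the 75th percentile and a difference of 1 marks a doubling of signal. Levels of different genes were not compared, since each probe binds with its own efficiency. The mock and gamma arrays of a run shared a slide, always with mock at position 1 and gamma at position 2, so that position and treatment cannot be told apart.

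In the differentiating endodermis, CASP proteins gather in a belt of the plasma membrane and hold the enzymes that build the strip in place. MYB36 activates genes of this machinery, among them CASP1, ESB1 and PER64. The peroxidase PER64 polymerises lignin and the dirigent-domain protein ESB1 helps to place it. The receptor kinase SGN3 perceives small sulphated peptides that leak through gaps in the strip, and so monitors whether the barrier is closed. The endodermis is a small share of a whole seedling. Fewer endodermal cells and less RNA per cell cannot be told apart in such samples.

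Genes that specify the endodermis were detected throughout: SHR, SCR, JKD, MGP, NUC, SCL3 and SCZ were each well above background on 10 of 10 arrays. The 8 Casparian strip genes all passed the filter on dim probes. Of these, 7 were well above background on every array, and CASP5 on 5 of 5 mock and 3 of 5 gamma arrays.

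All 8 genes had a mean level below mock after irradiation, with a median log2 difference of -0.38, beside -0.015 over all 23665 genes tested. Of those tested 20036 had a locus code, and the others, known by an array identifier only, are counted as genes in every all-gene share. CASP5 was 3.88-fold lower, while the other 7 were between 1.12-fold and 1.41-fold lower. In the fit over all genes (limma, Benjamini-Hochberg adjusted p under 0.05), 1 of the 8 genes lay past the threshold. It was CASP5, whose low value had prompted the choice of the set, so that its place there restates that choice. In the same fit 4.01% of all genes tested passed in either direction, 2.33% as lower and 1.68% as higher. Without run 3 or run 4, without the run as a block, or with a filter that CASP5 itself did not pass (well above background on all 10 arrays), 0 of the 8 lay past the threshold. The gamma array was below the mock array in every run for 6 of the 8 genes, where 13.5% of all genes tested were lower in 5 of 5 runs. For all 8 the mock and gamma levels overlapped, and 1.12% of all genes had every gamma array below every mock array. Since the set was chosen with this contrast known, nothing is read from these shares.

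**Figure D1:**
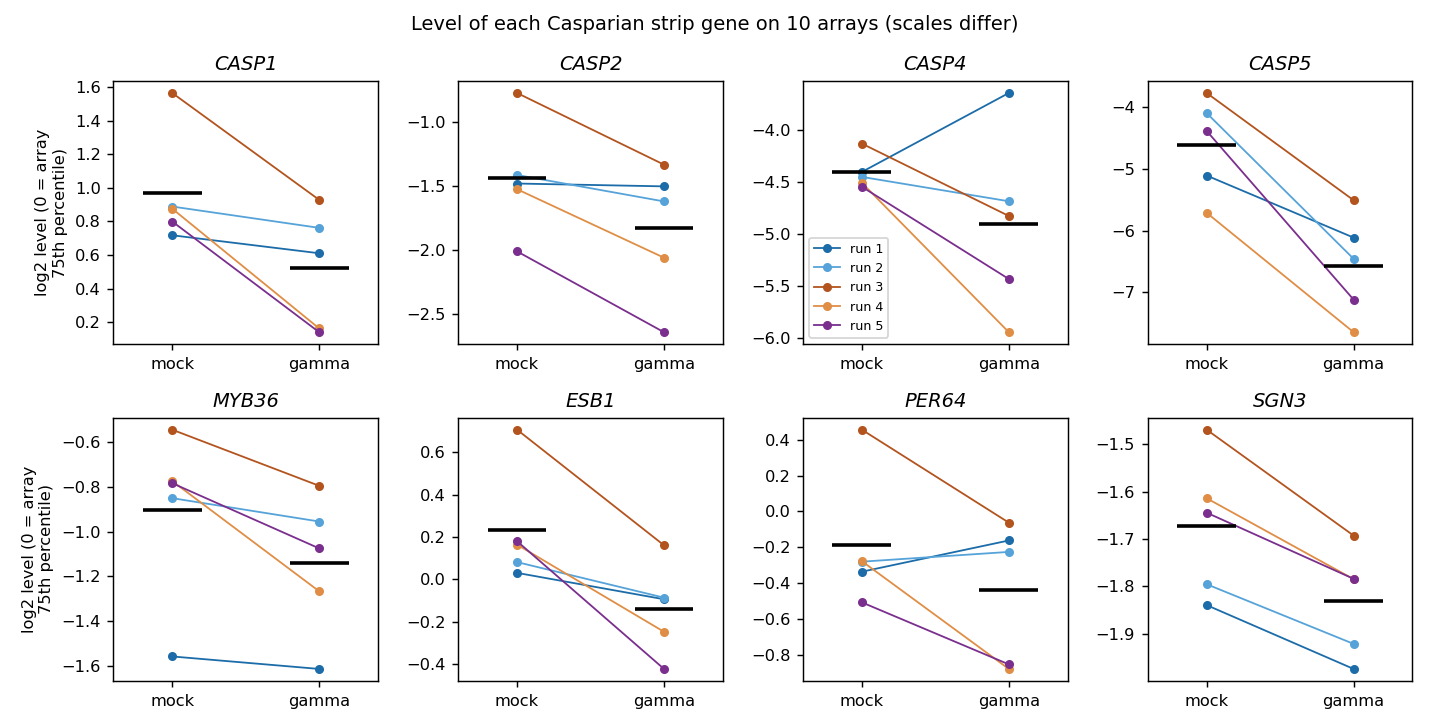
Log2 level of each of the 8 genes (y axis, 0 is the array's 75th percentile, scales differ between panels) on mock and gamma arrays (x axis). Lines join the 2 arrays of a run, and black bars are group means of 5 arrays. CASP5 is lower on the gamma array in 5 of 5 runs, and run 3 has the highest mock level in every panel.

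MYB36, the transcription factor of the strip, had mock levels of -1.56, -0.85, -0.54, -0.77 and -0.78 in runs 1 to 5. Its gamma levels were -1.61, -0.96, -0.80, -1.27 and -1.08. The gamma array was lower in 5 of 5 runs, but the groups overlapped widely because run 1 was low on both arrays. The mean difference was -0.24 ± 0.08 (SE of the limma fit, n = 5 pairs). A second, dimmer probe of MYB36 gave a mean difference of -0.29 and was also lower in 5 of 5 runs.

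CASP5 had mock levels of -5.10, -4.09, -3.77, -5.71 and -4.38 in runs 1 to 5. The gamma levels of CASP5 were -6.11, -6.46, -5.51, -7.64 and -7.12. Every gamma array was at least a log2 of 1.01 below the mock array of its run, yet mock run 4 lay below gamma run 3. The mean difference was -1.96 ± 0.24 SE (n = 5 pairs).

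The gamma arrays of runs 2 and 4 were not well above background for CASP5. With those arrays raised to the lowest signal of any probe that was well above background there, CASP5 was 3.10-fold lower. That signal is not specific to CASP5, so 3.10 is no lower limit for its change. Over the 3 runs in which both arrays were well above background, the mean difference was -1.83. With normexp background correction, which adds an offset of 50 to every signal, it was -0.89.

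CASP1 had mock levels of 0.72, 0.89, 1.57, 0.88 and 0.80, and gamma levels of 0.61, 0.76, 0.93, 0.16 and 0.14, in runs 1 to 5. The difference was small in runs 1 and 2, at -0.11 and -0.13, and larger in runs 3, 4 and 5, at -0.64, -0.71 and -0.66. The mean over runs was -0.45 ± 0.12 SE, with 5 of 5 runs lower.

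CASP2 also had its smaller differences in runs 1 and 2. Its mock levels were -1.48, -1.41, -0.77, -1.52 and -2.01, and its gamma levels -1.50, -1.62, -1.33, -2.06 and -2.64. The differences were -0.022 and -0.21 in the earlier runs and lay between -0.63 and -0.53 in the later ones. The mean was -0.39 ± 0.10 SE, again lower in 5 of 5 runs.

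CASP4 was dim but well above background on all arrays, and it was the least even of the scaffold genes. Mock levels were closely spaced, at -4.41, -4.45, -4.13, -4.51 and -4.55. Gamma levels spread from -5.95 in run 4 to -3.64 in run 1, with -4.69, -4.83 and -5.44 in runs 2, 3 and 5. The difference was 0.76 in run 1 and negative in the other 4 runs. Its mean, -0.50 ± 0.30 SE, became -0.81 without run 1, -0.26 without run 4 and -0.27 with normexp.

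Of the 2 wall-building genes, ESB1 was lower in 5 of 5 runs and PER64 in 3. ESB1 had mock levels of 0.031, 0.082, 0.71, 0.16 and 0.18, and gamma levels of -0.094, -0.086, 0.16, -0.25 and -0.42. Its mean difference was -0.37 ± 0.09 SE. A second ESB1 probe did not rise well above background on any of the 10 arrays.

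PER64 had mock levels of -0.34, -0.28, 0.46, -0.28 and -0.51 in runs 1 to 5, with gamma levels of -0.16, -0.23, -0.062, -0.88 and -0.85. It was higher after irradiation in runs 1 and 2, by 0.17 and 0.054, and lower in runs 3, 4 and 5, by values from -0.60 to -0.35. Over the 5 runs the mean was -0.25 ± 0.13 SE.

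SGN3, the barrier receptor, had the smallest and the most even difference of the 8 genes. Mock levels were -1.84, -1.80, -1.47, -1.61 and -1.64, and gamma levels were -1.97, -1.92, -1.69, -1.78 and -1.78. The differences in the 5 runs lay between -0.22 and -0.13, with a mean of -0.16 ± 0.05 SE and an SD between runs of 0.040.

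**Figure D2:**
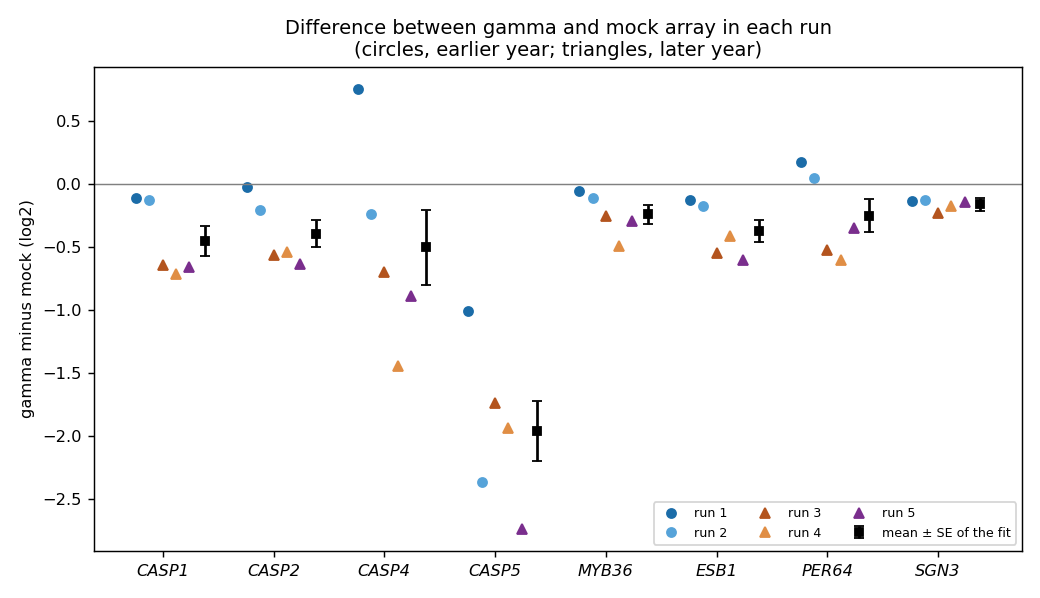
Gamma minus mock difference in log2 level (y axis) for each gene (x axis). Circles are the earlier runs 1 and 2, triangles the later runs 3 to 5, and black squares the mean ± SE of the limma fit. CASP5 lies below -1 in every run, and PER64 is above 0 in runs 1 and 2 only.

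The difference between gamma and mock was larger in the later runs for most of the genes. The mean over runs 1 and 2 was -0.12 for CASP1, -0.11 for CASP2, 0.26 for CASP4, -0.15 for ESB1 and 0.11 for PER64. Over runs 3, 4 and 5 it was -0.67 for CASP1, -0.57 for CASP2, -1.01 for CASP4, -0.52 for ESB1 and -0.49 for PER64. CASP5 was low in both sets of runs, at -1.68 and -2.14, and SGN3 was nearly level, at -0.13 and -0.18. MYB36 gave -0.080 in the earlier and -0.34 in the later runs.

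Whether the response differed between the years was tested with an interaction term in limma over all genes. For the 8 genes it reuses the gamma minus mock differences on which the set was chosen, so their values here are a description. The later minus earlier difference was below 0 for 8 of 8 genes, and for 52.0% of all genes tested. It ranged from -1.27 ± 0.36 SE for CASP4 to -0.048 ± 0.10 SE for SGN3. None of the 8 passed, with adjusted p between 0.205 (CASP1, -0.55 ± 0.10 SE) and 0.855 (SGN3). At an unadjusted p under 0.05 there were 5 of the 8, and 2482 of all 23665 genes. Over all genes 0.00423% passed, a single transcript known by its array identifier TC379423 and named here after its value was seen. A difference between the years was thus not shown for any of the 8 genes at the threshold over all genes. The estimates rest on 2 and 3 runs, with SE from 0.10 (CASP1) to 0.49 (CASP5). A lower later response was not particular to them. On lists described below it was seen in 17 of 18 other strip genes, 13 of 13 lignin monomer genes and 15 of 18 suberin genes. The count was 7 of 7 for root hair and epidermis genes and 3 of 3 for root cap genes. It was 16 of 32 for CASP-like genes and 0 of 5 for leaf markers.

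Without irradiation, the 8 genes also varied between runs. Mock run 3 was the highest of the 5 mock arrays for 8 of 8 genes, and for 21.4% of all genes tested. The median of the 8 genes there was 0.54 above their own mock means, while it lay between -0.18 and -0.062 in the other 4 runs. The distance from the lowest to the highest mock array was between 0.37 (SGN3) and 1.94 (CASP5). For every gene but CASP4 and CASP5 this distance exceeded the size of the mean difference between gamma and mock.

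CASP5 departed from the others in run 4, where it had its lowest mock level, and in run 2, where it was 0.52 above its own mean. CASP2 was lowest in mock run 5, at -0.57 from its mean, and MYB36 in mock run 1, at -0.66. After irradiation run 3 was again the highest for 7 of the 8 genes, all but CASP4, and for 25.3% of all genes tested. Later against earlier runs on mock arrays alone gave differences between -0.021 (CASP5) and 0.50 ± 0.26 SE (MYB36), 7 of them above 0. In limma 0 of the 8 passed, with adjusted p between 0.713 and 0.997 and 0 at an unadjusted p under 0.05, where 0.228% of all genes passed.

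**Figure D3:**
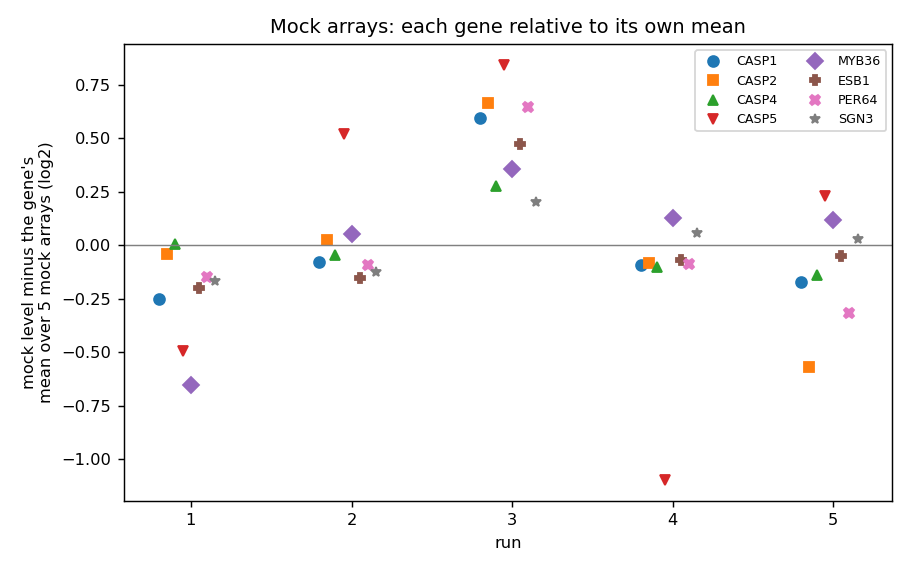
Mock level of each gene minus its own mean over the 5 mock arrays (y axis, log2) in runs 1 to 5 (x axis). All 8 genes lie above 0 in run 3, and CASP5 in run 4 is the lowest point.

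Over the 10 arrays, which share runs in pairs, the levels of the 8 genes were described by Pearson correlations without a test. These r include the gamma minus mock differences on which the set was chosen. Joint variation of the 8 genes follows in part from that choice and is no separate result. The median over the 28 pairs of genes was 0.66. CASP1 and ESB1 were most alike (r = 0.96), followed by CASP1 and PER64 (r = 0.94). The pair of CASP4 and MYB36 was least alike (r = -0.034). With the mean of the standardised levels of the 8 genes, CASP1 had r = 0.99 and ESB1 0.98, while SGN3, CASP4 and MYB36 had 0.67, 0.64 and 0.63. Each of the 8 genes is part of that mean, so some of its r is built in.

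The 8 other genes with a locus code whose levels were most like that mean over the 10 arrays had r between 0.96 and 0.98. They were AT3G24020 (r = 0.98), the sterol demethylase gene CYP51G1 (AT1G11680, r = 0.97), the peroxidase gene AT5G66390 (r = 0.97), AT4G12050 (r = 0.97), MYB40 (AT5G14340, r = 0.97), the aquaporin-like gene NLM1 (AT4G19030, r = 0.96), AT1G17285 (r = 0.96) and AHL22 (AT2G45430, r = 0.96). Of these 8, AT3G24020 and AT5G66390 were also on the list of other Casparian strip genes described next, which makes 2 of the 18 on that list. That mean was itself lower on the gamma array in 5 of 5 runs, so the gamma minus mock differences of these 8 genes are no separate result. They ranged from -0.67 (NLM1) to -0.15 (CYP51G1).

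Further genes of the strip were then examined from a list of 18, all of them tested: peptide signalling, oxidases, the membrane tether EXO70A1, dirigent proteins, peroxidases, a laccase and a uclacyanin. Of the 18, 2 fell, 0 rose and 16 did not pass, where 2.33% of all genes tested fell and 1.68% rose. The list had a median log2 change of -0.30, with 13 of 18 below 0, beside 53.8% of all genes tested. In limma 10 of the 18 reached an unadjusted p under 0.05, as did 5194 of 23665 genes. The median was -0.031 over the earlier and -0.45 over the later runs.

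AT3G55230 had mock levels of -0.16, 0.11, 0.79, 0.080 and 0.19 in runs 1 to 5, and gamma levels of -0.36, -0.19, 0.21, -0.51 and -0.39. It fell by 0.45 ± 0.08 SE (1.36-fold lower, limma adjusted p = 0.0390), lower in 5 of 5 runs, and its groups overlapped. AT1G44970 had mock levels of -0.71, -0.49, -0.056, -0.22 and -0.19, and gamma levels of -0.99, -0.87, -0.61, -0.77 and -0.38. It fell by 0.39 ± 0.07 SE (1.31-fold lower, limma adjusted p = 0.0457), also in 5 of 5 runs and with overlapping groups, and its second probe gave -0.50. Both loci have no symbol in the gene table used.

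Both calls ended on leaving out single runs, though the estimates stayed near. On leaving out each run they lay between -0.51 and -0.41 for AT3G55230, and between -0.44 and -0.35 for AT1G44970. Over all genes, 949 calls became 175 to 263 without run 1, 3, 4 or 5. The call of AT3G55230 ended without run 1, 3, 4 or 5 (limma adjusted p from 0.0654 to 0.150) and that of AT1G44970 without any 1 of the 5 runs (0.0709 to 0.165). Without the run as a block AT3G55230 and AT1G44970 stood at limma adjusted p = 0.766 and 0.708. That of AT1G44970 also ended with the mean of its probes (0.0892).

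Other members of the list are named here after their values were seen. The peptide-activating sulphotransferase gene TPST gave 0.034 ± 0.06 SE, the NADPH oxidase genes RBOHF and RBOHD 0.039 ± 0.07 and 0.12 ± 0.10 SE, and GSO2, the receptor gene closest to SGN3, -0.014 ± 0.10 SE. The wall genes UCC1, a uclacyanin, and LAC3, a laccase, gave -0.27 ± 0.11 and -0.32 ± 0.12 SE. The peroxidase genes RCI3 (AT1G05260) and AT5G66390 gave -0.48 ± 0.11 and -0.39 ± 0.08 SE. The dirigent genes AT3G24020 and AT2G39430 had the largest decreases of the list, at -0.51 ± 0.12 and -0.50 ± 0.12 SE. The peptide genes AT2G16385 and AT4G34600 gave 0.092 ± 0.14 and 0.040 ± 0.06 SE. None of these passed (limma adjusted p between 0.0613 and 0.952).

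The CASP-like genes, which encode membrane proteins related to the CASPs, were taken by name from the gene table. This list of 34 was added after the data had been seen. Of the 33 on the array 32 were tested, and 1 rose, 0 fell and 31 did not pass, a share near the 4.01% called among all genes, so that nothing about the family is read from it. The median was -0.029, and it was -0.030 and -0.0076 over the earlier and later runs. Below 0 were 18 of 32, near the 53.8% of all genes tested. CASPL4A2 (AT5G62820) had mock levels of -1.76, -1.91, -1.44, -1.85 and -2.50, and gamma levels of -1.10, -1.31, -1.14, -1.26 and -2.30. It rose 1.38-fold (log2 0.47 ± 0.09 SE, limma adjusted p = 0.0431), higher in 5 of 5 runs. That call ended without any 1 of the 5 runs (limma adjusted p from 0.0676 to 0.133) and without the run as a block (adjusted p = 0.9997).

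Genes around the strip were followed in 8 more lists, which brought the listed genes to 91, of which 88 were tested. Across all 9 lists 5 of the 88 fell and 0 rose, where 2.33% of all genes tested fell and 1.68% rose, and without the filter on dim probes none of these 5 calls, nor that of CASPL4A2, was left. The 7 genes of endodermis identity had a median of -0.17. By limma 0 of them passed, although 2 reached an unadjusted p under 0.05. SCZ (HSFB4), a regulator of ground tissue, gave -0.28 ± 0.08 SE (limma adjusted p = 0.112), and SHR, the moving transcription factor that specifies the endodermis, gave -0.17 ± 0.07 SE (0.214). Both were lower in 5 of 5 runs.

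Suberin is the waxy polymer laid down on older endodermal cells. By limma 0 of 18 suberin genes tested passed, 5 reached an unadjusted p under 0.05, and the median was -0.13. AT2G48130 gave -0.29 ± 0.06 SE (limma adjusted p = 0.0546) and the acyltransferase gene GPAT5 -0.23 ± 0.06 SE (0.113), each lower in 5 of 5 runs. By limma 0 of 13 genes that make the lignin monomers passed, 1 reached an unadjusted p under 0.05, and the median was 0.093 (-0.012 without run 2). The alcohol dehydrogenase gene CAD5 gave 0.27 ± 0.08 SE (limma adjusted p = 0.138) and the methyltransferase gene COMT1 0.17 ± 0.08 SE (0.269), both higher in 5 of 5 runs. The median of this list was 0.27 over the earlier and -0.035 over the later runs.

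**Figure D4:**
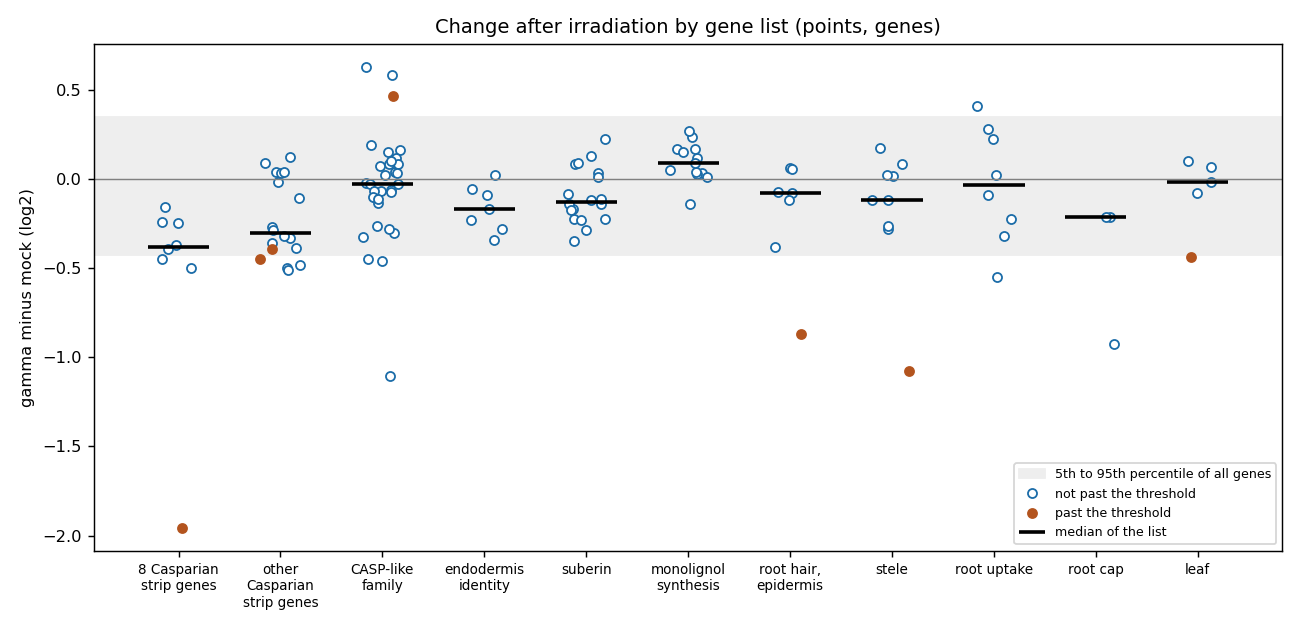
Gamma minus mock log2 change (y axis) of the genes of each list (x axis). Points are genes, filled where past the threshold, black bars are medians, and the grey band spans the 5th to 95th percentile of all genes, -0.42 to 0.35. The medians of the 8 Casparian strip genes, chosen on this contrast, and of the other strip genes are -0.38 and -0.30.

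Markers of other tissues were followed in the same arrays. Of 7 root hair and epidermis genes, 1 fell and 6 did not pass, with a median of -0.078 (-0.25 without run 2). That median was 0.42 over the earlier and -0.42 over the later runs, and 6 of the 7 were highest in mock run 3. The log2 of their summed signal ranged from 0.92 to 2.23 on mock and from 1.04 to 1.81 on gamma arrays. WER (MYB66), an epidermal transcription factor, fell by 0.87 ± 0.15 SE (1.83-fold lower, limma adjusted p = 0.0369, 5 of 5 runs). Its call ended without run 1, 3, 4 or 5 (adjusted p from 0.0781 to 0.128) and without the block (0.144).

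Of 9 stele genes 1 fell and 8 did not pass, with a median of -0.12 and summed signals from 3.27 to 3.58 on mock and 3.17 to 3.48 on gamma arrays. The gene that fell was AHP6 (HP6), a cytokinin signalling inhibitor of protoxylem, by 1.08 ± 0.20 SE (2.11-fold lower, limma adjusted p = 0.0439). It was well above background on 4 of 5 gamma arrays, and with normexp its change was -0.46. The call of AHP6 ended without run 1, 3, 4 or 5 (adjusted p from 0.0857 to 0.138) and without the block (0.147).

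By limma 0 of 8 root uptake genes passed, and 4 reached an unadjusted p under 0.05. The aquaporin gene TIP2;3 gave -0.55 ± 0.11 SE (limma adjusted p = 0.0545) and the root glucosidase gene PYK10 0.28 ± 0.07 SE (0.0900). Their summed signal ranged from 5.65 to 6.31 on mock and from 5.84 to 6.45 on gamma arrays, and rests largely on PYK10, while the median change of the list was -0.032. Of 4 root cap genes 3 were tested by limma, 0 passed and 1 reached an unadjusted p under 0.05. The cap factor gene SMB gave -0.93 ± 0.22 SE (limma adjusted p = 0.0769) and BRN1 -0.21 ± 0.19 SE (0.550). The cap sum ranged from -3.50 to -2.45 on mock and from -3.57 to -2.77 on gamma arrays.

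The endodermis identity genes summed to between 1.33 and 1.79 on mock and between 0.96 and 1.64 on gamma arrays. Of 5 leaf markers 1 fell, the trichome factor gene GL1 (MYB0), by 0.43 ± 0.08 SE (limma adjusted p = 0.0399), and the list median was -0.013. The call of GL1 ended without run 1, 3, 4 or 5 (adjusted p from 0.0943 to 0.154), with quantile normalisation (0.0602), with normexp (0.0547) and without the block (0.704). The leaf sum ranged from 8.70 to 9.46 on mock and from 8.80 to 9.48 on gamma arrays. What part the share of root tissue has in the levels of the 8 genes was not tested.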

How the data were processed

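The scanner files hold linear spot intensity as deposited by the authors: background-subtracted, detrended processed signals from Agilent Feature Extraction 11.0.1.1, per the file headers (9.1 per the submitters' processing notes). The deposited value table holds a linear ratio per probe, with 77.7% of rows centred on a median of 1 and its scaling between arrays unknown; it was used as an alternative. Its columns followed the probe-centred log2 signal (r at least 0.9955 over probes well above background on all arrays). Column medians ranged from 0.925 to 0.9925.

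Control and outlier spots were left out. Log2 processed signals were scaled to each array's 75th percentile. Of 43603 probes, 34348 matched a RefSeq locus by transcript accession; the build of the array grid is TAIR10 and that of the table TAIR10.1, so no coordinates are given. The brightest probe per gene was kept if well above background on at least 5 of 10 arrays. Fits used R 4.3.3 and limma 3.58.1, with the run as a fixed block, after a check on simulated data. The run pairs arrays through the titles and the stated repetition by day. Mock and gamma deviations correlated within each run, at 0.56 to 0.89. No arrays were duplicates.

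The 8 genes, the lists and the tests were chosen with earlier results of these data known. Genes named were these 8, each list gene past the threshold (or otherwise the 2 with the smallest adjusted p), the 8 most like their mean, and others where stated. Alternatives were other scalings, normexp (on median signals), filters, probe rule, no block, slide as block, the value table and leaving out each run. A further gene of the set is not reported here and entered no count or mean of the set. No sequences were used here.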

Additional observations from a re-analysis of the deposited data

Results flagged for a closer look

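The mock array of run 3 stood apart from the other 4 mock arrays for CASP1 (log2 level 1.57), ESB1 (0.71) and PER64 (0.46), in each case on the high side by more than 0.71 of the whole mock range. In 42 groups of 5 values examined this way there were 4 such cases. Chance flags about 1 group in 20, and these 3 cases share an array. The other was CASPL4A2, whose gamma level in run 5 was low, at -2.30. PER64 was higher after irradiation in both earlier runs and lower in all 3 later runs, with a later minus earlier difference of -0.60 ± 0.13 SE. In limma this difference did not pass (adjusted p = 0.258).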

How the results depend on the processing

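All 8 genes stayed below 0 under every alternative (7 of 7 with the filter on all 10 arrays, which left CASP5 out), and only the CASP5 difference moved by more than its SD between runs, to -0.89 with normexp. The alternatives use the arrays and the contrast on which the set was chosen, so staying below 0 is no separate support. The all-gene count of 949 was 328 without a filter and 142 without the replicate block, and 175 to 995 on leaving out single runs. Its split of 398 higher and 551 lower was 520 and 495 with the array median and 518 and 494 with the value table. Lacking the block it was 107 and 35, and with all probes kept 175 and 153. List genes past the threshold (5) numbered 9 with normexp, 0 without a filter (26 at an unadjusted p under 0.05 in limma), 0 without the block (10) and 0 to 4 without single runs (19 to 30 unadjusted where 0 passed). The later against earlier response (1 gene) gave 15 with the array median, 2 with quantile normalisation, 44 with normexp, 0 without a filter (2560 unadjusted) and 0 to 447 without single runs, 447 being without run 1. The mock comparison of years (54 genes) gave 0 without a filter (1946 unadjusted) and 0 to 109 without single runs, 109 being without run 5. With 1 run left in the earlier year, that run is assumed to vary like the others. The median of the other strip genes was -0.42 without run 1, and that of the root cap genes lay between -0.57 (no filter) and -0.074 (without run 5). The slide block equals the run block. The causes were not tested. The number of arrays limits all estimates, and signal near background limits CASP5. CASP4 was also dim, and its difference was -0.27 with normexp.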
